A study of Mus musculus with 16 samples.

Results

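The enzymes that make leukotrienes and prostaglandins, and the enzyme that breaks prostaglandins down, were followed in endothelial cells (ECs) sorted from mouse lungs at a young and an old age, with and without injury. The 8 genes, Alox5, Alox5ap, Ltc4s, Ptgs1, Ptgs2, Ptgis, Ptges and Hpgd, were taken by symbol from the deposited table of 43346 genes, and all 8 passed the test's filter on low counts. The groups were Young Sham (n = 5) and Young Bleo (n = 4) at 2 months of age, and Aged Sham (n = 3) and Aged Bleo (n = 4) at 18 months. All mice were of the FVB strain, and per the study's methods all carried the Col1a1-GFP transgene, in which GFP marks collagen-producing cells. Bleo mice received bleomycin, a drug that injures the lung and leads to fibrosis, into the trachea at 1 U/kg, sham mice received PBS, and cells were taken 30 days later. The sorted cells were positive for CD31, a surface protein of ECs, and negative for the leukocyte protein CD45, the epithelial protein EpCAM and GFP. Mice of both sexes were used according to the methods, and the labels give no sex per library.

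Eicosanoids are short-lived lipid signals made from arachidonic acid. In the leukotriene branch, 5-lipoxygenase (Alox5), helped by its activating protein FLAP (Alox5ap), makes leukotriene A4, and leukotriene C4 synthase (Ltc4s) joins it to glutathione to give the cysteinyl leukotrienes, which make vessels leak and come mostly from myeloid cells. In the prostanoid branch, the cyclooxygenases COX-1 (Ptgs1) and COX-2 (Ptgs2) make prostaglandin H2, which prostacyclin synthase (Ptgis) turns into the vasodilator prostacyclin and microsomal prostaglandin E synthase (Ptges) into prostaglandin E2. The lung removes prostaglandins such as E2 from the blood largely on a single pass, and Hpgd, 15-hydroxyprostaglandin dehydrogenase, carries out the first step of their breakdown.

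The promoters of Ltc4s, the gene with the largest log2 fold change between the sham groups among the 8, and of Ptges and Hpgd, both lower in Young Bleo, are shown as 250 bases before and 50 bases after the annotated start, 5′ to 3′ on the gene's strand. They come from RefSeq on GRCm38.p6, the assembly that mm10 names. Entries were found for 6 of the 8 genes, and not for Alox5ap and Ptgis. The RefSeq start is the start of the deposited gene model for Hpgd, and lies inside that model, 84 bases from its start for Ltc4s and 26566 bases for Ptges. Capitals mark GGAAGT, a core sequence of ETS factors, the family of the endothelial factor ERG, and TATAAA, the TATA box.
Ltc4s, chr11:50238483-50238782, minus strand: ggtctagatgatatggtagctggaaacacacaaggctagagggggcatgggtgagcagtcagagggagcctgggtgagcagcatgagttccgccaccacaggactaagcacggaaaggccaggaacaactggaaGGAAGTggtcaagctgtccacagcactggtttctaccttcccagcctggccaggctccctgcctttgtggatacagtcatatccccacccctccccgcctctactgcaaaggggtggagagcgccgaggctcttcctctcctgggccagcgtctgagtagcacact
Ptges, chr2:30903248-30903547, minus strand: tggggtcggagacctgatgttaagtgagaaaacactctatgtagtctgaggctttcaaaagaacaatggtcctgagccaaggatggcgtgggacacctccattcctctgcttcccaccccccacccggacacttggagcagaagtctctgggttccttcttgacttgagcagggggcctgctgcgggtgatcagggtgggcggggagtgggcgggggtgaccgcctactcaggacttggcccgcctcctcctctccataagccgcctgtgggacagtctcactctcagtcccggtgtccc
Hpgd, chr8:56294302-56294601, plus strand: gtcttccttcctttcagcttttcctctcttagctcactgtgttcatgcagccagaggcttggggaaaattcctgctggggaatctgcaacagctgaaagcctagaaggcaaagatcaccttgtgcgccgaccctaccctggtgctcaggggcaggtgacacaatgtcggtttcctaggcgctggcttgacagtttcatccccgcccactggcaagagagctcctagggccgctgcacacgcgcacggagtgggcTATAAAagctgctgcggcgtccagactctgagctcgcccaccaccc
Both strands were searched for GGAAGT and TATAAA, which do not overlap each other. GGAAGT stood at position -116 from the start of Ltc4s and at position -22 of Ptgs1, and in none of the other 4 promoters, while 23.8% of the 32851 promoters in the table held it. TATAAA was in the Hpgd promoter alone among the 6, beginning at position 4 after the annotated start, and 13.6% of all promoters held it. These are matches of letters and no measure of binding.

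Libraries held between 20.9 and 71.0 M counts. By the study's methods, RNA integrity ran higher in the bleomycin group than in the sham group at each age, with ranges that overlapped. Its part in the injury comparisons was not tested. Pecam1 (CD31) lay between 66.6 and 152 FPKM (fragments per kilobase of gene and per M mapped), whereas Ptprc (CD45) reached 0.517 FPKM and Epcam 0.798 FPKM at most. Other epithelial genes did not all stay as low as Epcam. Cdh1 lay at or under 0.380 FPKM, but Sftpc lay between 43.4 and 378 and Scgb1a1 between 1.63 and 399 FPKM. The epithelial markers summed to 64.0 to 661 FPKM per library, and their part in the values of the 8 genes was not tested. Several of the marker lists differed between groups. In summed FPKM, Young Bleo was above every Young Sham library for arterial (389 to 523 against 191 to 249), venous (66.6 to 102 against 40.1 to 64.4), lymphatic (681 to 1529 against 265 to 364) and mesothelial markers (5.64 to 17.2 against 0.0954 to 1.53), and below it for the general endothelial (1571 to 2041 against 2360 to 2607) and platelet markers (111 to 254 against 278 to 520). Their part in the young injury results was not tested. Aged Bleo 1 and 2 had the highest summed macrophage markers, Aged Sham 14 had the highest platelet markers, and Young Bleo 20, Aged Bleo 3 and Aged Bleo 5 had more of the markers of aerocytes, a capillary EC type, than the other bleomycin libraries. In bulk samples, fewer cells of a type and less RNA per cell cannot be told apart. The effect of leaving out Aged Bleo 1, Aged Bleo 2 and Aged Sham 14 together, a choice made after the data were seen that leaves 2 libraries in each aged group, is given for the 8 genes where it changes a call and for the wider pathway in 1 place. Aged Bleo 1 and 2 lay below Aged Bleo 3 and 5 for Ptges, Hpgd and Ptgis, and above them for Alox5ap. Leaving them out by itself moves Aged Bleo away from Young Bleo for these genes. Young Bleo 17 to 19, with aerocyte sums of 208 to 389 FPKM against 193 and 332 in Aged Bleo 1 and 2, were kept. Calls that appear only in this fit are therefore not separate evidence.

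Hpgd was by far the most abundant of the 8 genes, at an average of 277 FPKM over the 16 libraries and rank 64 of 43346 genes. Alox5ap followed at 14.0, Ltc4s at 11.5, Ptgis at 8.89, Ptgs1 at 8.41 and Ptges at 6.12 FPKM. The inducible cyclooxygenase Ptgs2 averaged 0.587 FPKM and Alox5 0.159 FPKM. In each library Ptgs1 exceeded Ptgs2, by a ratio of FPKM between 9.10 and 37.1. Between libraries, Ltc4s and Ptges varied most after Alox5. The highest library held 37.6 times the Ltc4s level of the lowest and 20.2 times the Ptges level, against 2.68 times for Ptgis.

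**Figure D1:**
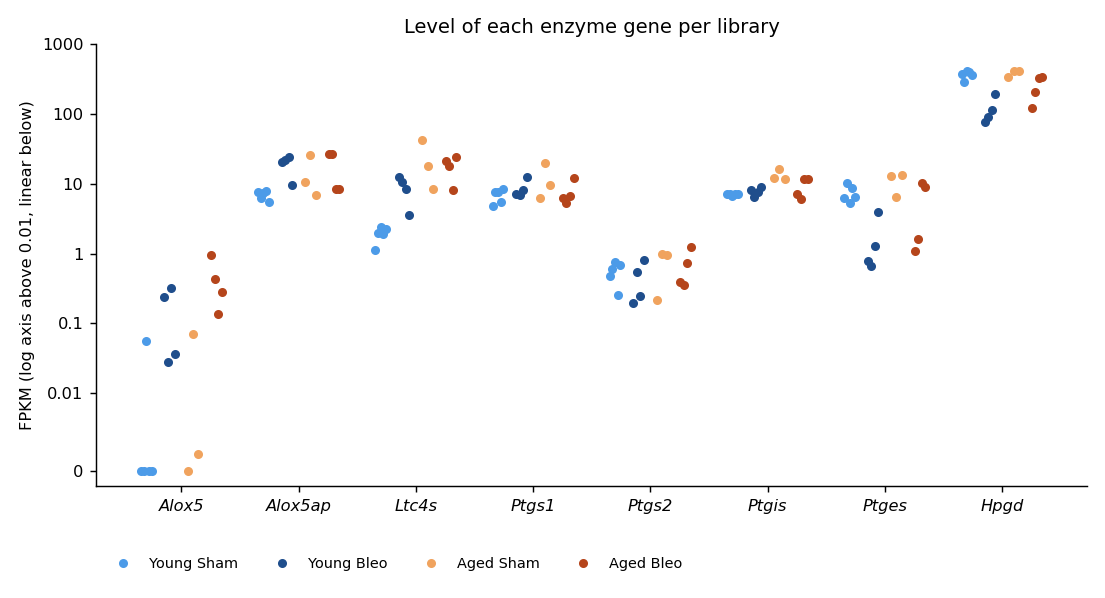
FPKM of each gene in each of the 16 libraries, coloured by group, on an axis that is logarithmic above 0.01. Hpgd lies above the other 7 genes in every library, and Alox5 is at 0 in 4 of 5 Young Sham libraries.

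Values from here on are read counts scaled by DESeq2's size factors (normalized counts). A difference was called when its DESeq2 p-value, adjusted by the Benjamini-Hochberg method over all genes tested, was 0.05 or less and its size was 0.5 log2 units or more. The adjusted p of edgeR's quasi-likelihood test is given beside it. According to the study, the RNA came from lungs that were also used for chromatin accessibility, where each sample was a separate mouse, so p-values measure the spread between the libraries of these mice.

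With age alone, in Aged Sham against Young Sham, Ltc4s and Ptgis were higher and the other 6 genes were not called. These 2 calls of 8 stand against 3.35% of all tested genes (2.24% higher, 1.11% lower), and edgeR called the same 2 genes, against 0.862% of all. The same 2 of 8 had groups that did not overlap, as did 8.73% of all genes. The median log2 fold change of the 8 genes was 0.99, against 0.02 over all tested genes, and the value was above 0 for all 8. Leaving out Aged Sham 14, the library with the most platelet markers, turned Alox5 to -2.75. It also lowered Alox5ap, Ptgs1 and Ptgs2 to 0.50, 0.35 and 0.18. Genes other than Alox5 stayed above 0 whichever single library was left out.

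With injury in young mice, in Young Bleo against Young Sham, Alox5ap and Ltc4s were higher and Ptges and Hpgd lower. These 4 calls of 8 stand against 13.9% of all tested genes (7.57% higher, 6.35% lower), and edgeR called the same 4 genes, against 9.78%. The same 4 of 8 had groups that did not overlap, as did 14.8% of all genes. The median over the 8 was 0.22, against 0.01 over all tested genes.

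With injury in aged mice, in Aged Bleo against Aged Sham, Ptgis alone was called, and was lower, against 5.83% of all tested genes (3.39% higher, 2.44% lower). edgeR called 0 of 8 here, against 0.797% of all, with an unadjusted edgeR p under 0.05 for 4 of the 8 and for 16.3% of all. In normalized counts Alox5, Ptgis and Hpgd, 3 of 8, had groups that did not overlap, as did 12.1% of all genes. In FPKM this held for Alox5 alone, against 12.1% of all genes, and the counts without overlap of the other comparisons were the same in both units. The median over the 8 was -0.60, against 0.01 over all tested genes.

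Between the injured groups, in Aged Bleo against Young Bleo, Hpgd alone was called, and was higher, against 1.03% of all tested genes (0.616% higher, 0.41% lower). edgeR called 0 of 8, against 0.0437% of all, with an unadjusted edgeR p under 0.05 for 3 and for 8.75% of all. The 2 groups overlapped for all 8 genes, while 5.08% of all genes did not overlap. In Aged Bleo against Young Sham, Alox5, Alox5ap and Ltc4s were called, all higher, against 9.72% of all tested genes (6.58% higher, 3.14% lower), and edgeR called Alox5 and Ltc4s, against 5.69%. The same 3 of 8 did not overlap, as did 10.8% of all genes. The aged response to bleomycin minus the young one was called for Ltc4s alone, against 0.381% of all genes. edgeR called 0 of 8 differences, against 0.00546% of all, with an unadjusted p under 0.05 for 4 and for 7.0% of all. The comparisons share libraries, so that their results are not independent.

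**Figure D2:**
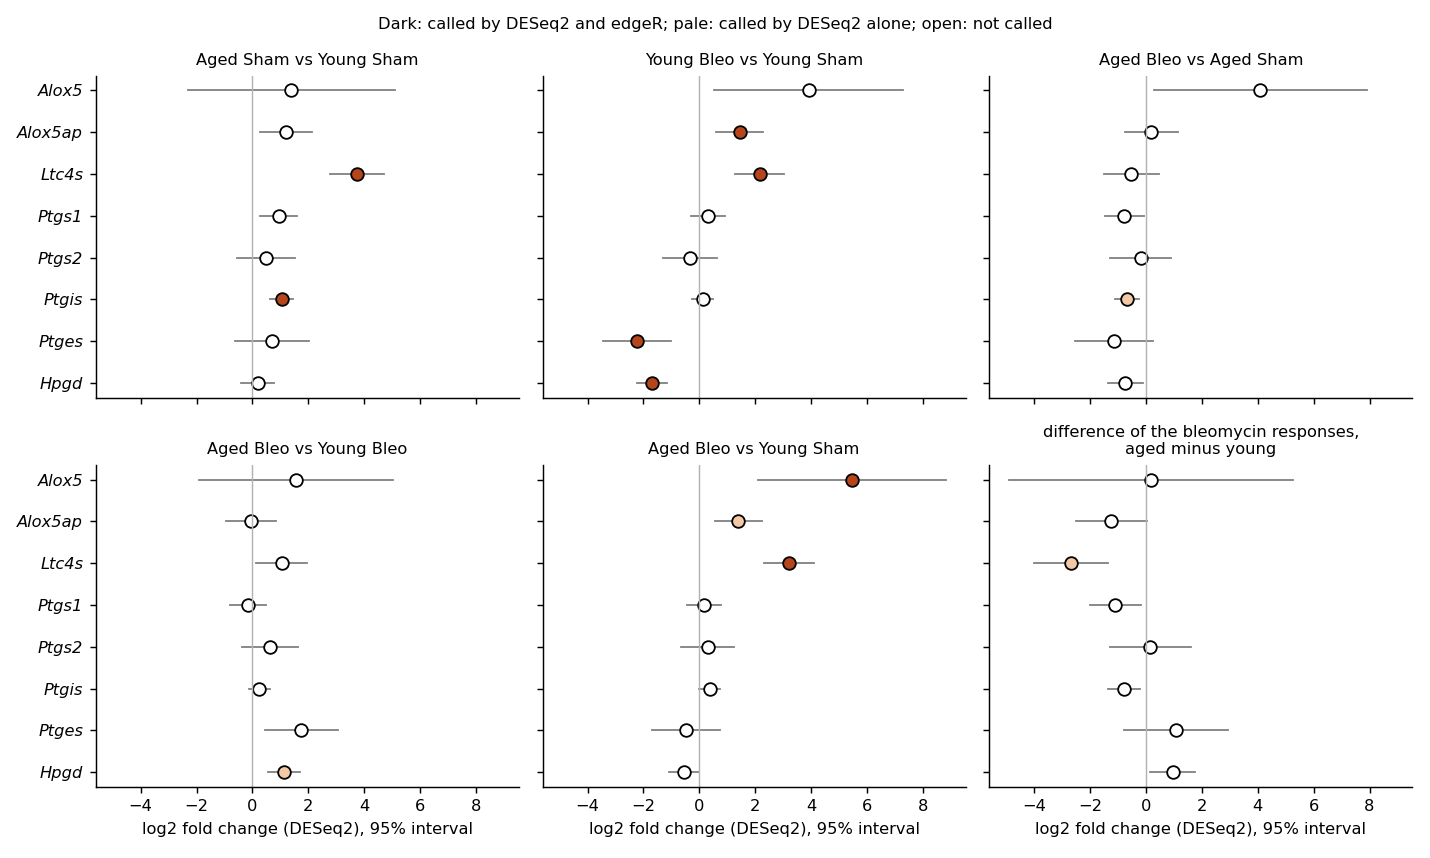
Log2 fold change of each gene in each comparison with its 95% interval, from DESeq2. Dark points were called by DESeq2 and edgeR, pale points by DESeq2 alone, and open points were not called. The dark points are Ltc4s and Ptgis for age, 4 genes for injury in young mice, and Alox5 and Ltc4s in Aged Bleo against Young Sham.

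Alox5 (mm10 chr6:116410077-116461178), which starts leukotriene synthesis, was almost undetected in sham ECs and present after bleomycin. In Young Sham the read counts were 0 in 4 libraries and 11 in replicate 23, and in Aged Sham they were 0, 28 and 1 in replicates 13, 14 and 15. Its normalized counts were 97.0, 11.4, 134 and 13.9 in Young Bleo 17 to 20, and 392, 192, 55.8 and 116 in Aged Bleo 1, 2, 3 and 5. Every Aged Bleo library was above every sham library, whereas Young Bleo overlapped Young Sham. Aged Bleo exceeded Young Sham by 5.48 log2 units (SE 1.72, DESeq2 adjusted p = 0.019, edgeR adjusted p = 0.033), a size that depends on how the zeros are fitted. This call was lost without Aged Bleo 2 (DESeq2 adjusted p = 0.080), without the 3 libraries that stood apart (4.38, adjusted p = 0.19) and in a fit of only these 2 groups (5.45, adjusted p = 0.060). The injury effect in aged mice was 4.09 log2 units and was not called (SE 1.94, DESeq2 adjusted p = 0.22, edgeR adjusted p = 0.23), but was called in a fit of only the 2 aged groups (4.07, DESeq2 adjusted p = 0.015) and by limma (adjusted p = 0.048). In Young Bleo the value was 3.92 (SE 1.72, DESeq2 adjusted p = 0.11, edgeR adjusted p = 0.076). Without Young Sham 23, the control library that held reads, it reached 8.49 with a DESeq2 adjusted p of 2.3e-06, and without the 3 libraries that stood apart it was 3.97 (DESeq2 adjusted p = 0.031).

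The groups with more Alox5 also had more macrophage markers, and Aged Bleo had more neutrophil markers. The macrophage markers summed to 23.8 to 44.5 FPKM in Young Sham and 54.1 to 189 in Aged Sham, against 158 to 454 in Young Bleo and 216 to 1607 in Aged Bleo. Of the 12 markers, 8 were called higher in Young Bleo and 9 in Aged Bleo against Young Sham, 8 in Aged Bleo against Aged Sham, and 0 in Aged Sham against Young Sham. The lysozyme gene Lyz2 made up most of the Aged Bleo sum. The defining marker Adgre1 stayed at or under 2.15 FPKM, and Siglec1 had no count in 4 of 5 Young Sham and 2 of 3 Aged Sham libraries. Aged Bleo 1 had both the most Alox5 and the highest sum, whereas in Young Bleo replicate 18 had the highest sum and the least Alox5. Neutrophils also express Alox5. Their markers summed to 0.0807 to 0.777 FPKM in Young Sham, 0.418 to 3.39 in Aged Sham, 0.451 to 1.22 in Young Bleo and 2.10 to 9.75 in Aged Bleo. Of these 6 markers, S100a8 alone was called higher in each of the other groups than in Young Sham, and 0 in Aged Bleo against Aged Sham. Cxcr2 had no count in 3 of 4 Aged Bleo libraries. The part of macrophage or neutrophil RNA in the values of Alox5 and of the other leukotriene genes was not tested.

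Alox5ap (chr5:149265058-149288045), whose protein presents arachidonic acid to 5-lipoxygenase, was higher after bleomycin in young mice. Young Sham averaged 594 ± 92.6 (SD, n = 5) and lay between 482 and 708. Young Bleo 17 to 20 held 1727, 1853, 2129 and 756, all above Young Sham. The rise was 1.44 log2 units (SE 0.43, DESeq2 adjusted p = 0.0085, edgeR adjusted p = 0.041), a call that was lost without Young Bleo 19 (DESeq2 adjusted p = 0.052). Replicate 20, the lowest, was also the Young Bleo library with the lowest macrophage sum.

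Both aged groups were spread out for Alox5ap. Aged Sham 13 to 15 held 1073, 2413 and 609, and exceeded Young Sham by 1.20 log2 units without a call (SE 0.47, DESeq2 adjusted p = 0.15). In a fit of only the 2 sham groups this difference was called (DESeq2 adjusted p = 0.030), and without the 3 libraries that stood apart it was 0.50. Aged Bleo 1 and 2 held 2315 and 2481, and Aged Bleo 3 and 5 held 713 and 719. The log2 fold change of Aged Bleo over Young Sham was 1.39 (SE 0.43, DESeq2 adjusted p = 0.016, edgeR adjusted p = 0.065), and the call was lost without Aged Bleo 1 or Aged Bleo 2 (DESeq2 adjusted p up to 0.15). Without the 3 libraries that stood apart it was 0.27 (DESeq2 adjusted p = 0.85), Alox5ap was called lower in Aged Bleo than in Young Bleo, by -1.18 (DESeq2 adjusted p = 0.017), and the difference of the responses was called at -1.68 (DESeq2 adjusted p = 0.040). Those 2 Aged Bleo libraries had the highest macrophage sums, 1607 and 927 FPKM, and Aged Sham 14 had the highest of both in its group.

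Ltc4s (chr11:50236469-50238616), which makes leukotriene C4, was higher in all 3 other groups than in Young Sham. Young Sham 21 to 25 held 84.0, 142, 170, 152 and 172. Young Bleo 17 to 20 held 911, 790, 635 and 247, Aged Sham 13 to 15 held 3681, 1457 and 641, and Aged Bleo 1, 2, 3 and 5 held 1563, 1424, 593 and 1754. The highest Young Sham library was below the lowest of every other group, and the other 3 groups overlapped. The step from Young Sham to Aged Sham was 3.74 log2 units (SE 0.49, DESeq2 adjusted p = 4.6e-11, edgeR adjusted p = 0.0020). Over the fits that left out 1 library it lay between 2.87 and 4.16, and was lowest without Aged Sham 13. Young Bleo was 2.17 above Young Sham (SE 0.45, DESeq2 adjusted p = 6.3e-05, edgeR adjusted p = 0.0083) and Aged Bleo 3.21 above it (SE 0.45, DESeq2 adjusted p = 3.8e-10, edgeR adjusted p = 0.0017). These 3 calls held without any single library, and without the 3 libraries that stood apart. Ltc4s belongs to the innate immunity list that the study chose on these libraries, so its rise with age is not independent evidence.

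Within aged mice the Ltc4s values of the injured and sham groups overlapped, with a log2 fold change of -0.53 and a 95% interval of -1.52 to 0.47 (DESeq2 adjusted p = 0.65). The response in aged mice was 2.70 log2 units below that in young mice, a difference called by DESeq2 alone (SE 0.68, DESeq2 adjusted p = 0.030, edgeR adjusted p = 0.36). Of 16 fits that each left out 1 library, 9 kept the call. It was lost without Aged Bleo 3, Aged Sham 13, Young Bleo 17, 18 or 19, or Young Sham 21 or 22. Without Aged Sham 13, the highest library, the difference was -1.82 (DESeq2 adjusted p = 0.22).

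Of the libraries with high Ltc4s, Aged Sham 13 had a macrophage sum of 54.1 FPKM, near the upper end of Young Sham at 44.5 FPKM. Other immune markers were higher in Aged Sham. The leukocyte markers of the CD45 gate summed to 1.93 to 4.46 FPKM in Young Sham, and to 8.97, 17.5 and 7.05 in Aged Sham 13 to 15, 5.88 to 9.43 in Young Bleo and 10.9 to 28.6 in Aged Bleo. Of these 5 markers, 3 were called higher in Aged Sham, 3 in Young Bleo and 5 in Aged Bleo than in Young Sham. The T and B lymphocyte markers summed to 0.493 to 1.42 FPKM in Young Sham and 1.94 to 4.41 in Aged Sham, where replicate 13 was the highest, with 1 of 7 called higher. In Young Bleo, where Ltc4s was also called higher, they summed to 0.449 to 1.34 FPKM, within the range of Young Sham but for the lowest library, and in Aged Bleo to 0.558, 0.591, 1.28 and 9.14 in replicates 1, 2, 3 and 5, with 0 of 7 called in either group against Young Sham. Mast cells also express Ltc4s, and their markers summed to 0.0330 to 0.166 FPKM in Young Sham against 1.56, 1.96 and 0.443 in Aged Sham 13 to 15, and to 0.112 to 2.54 in Young Bleo and 0.402 to 2.52 in Aged Bleo, mostly from Mcpt4 and Cpa3. Aged Sham 14 had more of them than Aged Sham 13 and less Ltc4s. Of the 7 mast cell and basophil markers, 0 were called in Aged Sham and 1 in each injured group against Young Sham, and Fcer1a and Tpsb2 had no count in any of the 16 libraries. The part of leukocyte RNA in Ltc4s was not tested. In FPKM, the ratio of Ltc4s to Alox5ap within a library averaged 0.290 ± 0.0974 over the Young Sham libraries (SD, n = 5) and 0.457 ± 0.120 over Young Bleo (SD, n = 4). The 7 aged libraries lay between 0.664 and 3.97, all above the highest young library at 0.610, and Aged Sham and Aged Bleo overlapped. This ratio was looked at after its values were seen and was not tested.

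On the opposite strand Ltc4s shares 1608 bases with the lincRNA Gm26542 (chr11:50237009-50288839). Gm26542 held 24.5% to 43.0% as many counts as Ltc4s and had the pattern closest to it among 13774 genes. Its mean was 47.9 in the young sham group and 192 after injury, and 552 and 491 in the aged sham and injured groups. The strand setting of the counting is not given in the sources used here, and without strand the reads of the 2 genes cannot be told apart in the shared bases.

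Neither cyclooxygenase was called in any comparison. Ptgs1 (chr2:36230426-36252272), the constitutive form and the one in platelets, lay between 1880 and 3360 in Young Sham. Aged Sham 13 to 15 held 2880, 8522 and 3904, and the log2 fold change with age was 0.94 (SE 0.34, DESeq2 adjusted p = 0.10, edgeR adjusted p = 0.21). It was called without Aged Sham 13, and was 0.35 without Aged Sham 14. In Aged Sham 14 the platelet markers summed to 3444 FPKM, against 278 to 520 FPKM in Young Sham, 111 to 254 FPKM in Young Bleo, 66.5 to 492 FPKM in Aged Bleo and 641 to 963 FPKM in the other Aged Sham libraries. Of the 7 platelet markers, 4 were called higher in Aged Sham than in Young Sham and 6 lower in Aged Bleo than in Aged Sham, and the part of platelet RNA in Ptgs1 was not tested. Ptgs1 lay between 2654 and 4572 in Young Bleo and between 2216 and 4677 in Aged Bleo.

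Ptgs2 (chr1:150100031-150108227), the form that inflammatory signals induce, was low in every library. Young Sham held 126 to 334 normalized counts and Young Bleo 89.2 to 350, Aged Sham held 118 to 496 and Aged Bleo 178 to 563, and all groups overlapped. The 95% interval of the injury effect ran from -1.30 to 0.62 log2 units in young mice and from -1.28 to 0.90 in aged mice, so that a fall by 1 log2 unit lies within both.

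Ptgis (chr2:167191805-167240604), which makes prostacyclin, rose with age in uninjured ECs. Young Sham libraries lay close together, at 1825 ± 117 (SD, n = 5). Aged Sham 13 to 15 held 3619, 4601 and 3100, and each was above the highest Young Sham library at 1955. The rise was 1.05 log2 units (SE 0.21, DESeq2 adjusted p = 8.1e-05, edgeR adjusted p = 0.017). It was called without any single library, at values from 0.88 to 1.17, while limma gave an adjusted p of 0.052. Every Aged Sham library was also above every Young Sham library in platelet markers (641 to 3444 against 278 to 520 FPKM) and mesothelial markers (3.72 to 14.0 against 0.0954 to 1.53 FPKM), and Aged Sham 14 was the highest in Ptgis and in platelet markers. The same held for macrophage (54.1 to 189 against 23.8 to 44.5 FPKM), leukocyte (7.05 to 17.5 against 1.93 to 4.46 FPKM), lymphocyte and mast cell markers, and the general endothelial markers were lower in every Aged Sham library (2068 to 2227 against 2360 to 2607 FPKM). The part of these cells in Ptgis was not tested, and without Aged Sham 14 the rise was 0.88 (DESeq2 adjusted p = 0.011). In young mice the injured and sham groups overlapped, at 2100, 1637, 1998 and 2184 in Young Bleo 17 to 20, and the 95% interval of the log2 fold change was -0.25 to 0.49.

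In aged mice Ptgis was lower after bleomycin by DESeq2 alone. Aged Bleo 1, 2, 3 and 5 held 1832, 1673, 2970 and 2947, all below the lowest Aged Sham library. In FPKM the groups overlapped, since Aged Bleo 3 and 5 held 11.73 and 11.59 against 11.55 in Aged Sham 15. Replicates 3 and 5, the higher pair, had more aerocyte and fewer macrophage markers than replicates 1 and 2, and 6 of 7 platelet markers were called lower in this comparison. Every Aged Bleo library was above every Aged Sham library in macrophage, arterial (265 to 462 against 200 to 254 FPKM), venous (78.8 to 114 against 41.0 to 74.1) and general capillary markers (611 to 774 against 365 to 560), and below it in platelet, general endothelial (1434 to 2056 against 2068 to 2227), fibroblast (6.83 to 11.7 against 14.5 to 25.8) and pericyte and smooth muscle markers. The part of these cells was not tested. The change was -0.68 log2 units (SE 0.21, DESeq2 adjusted p = 0.032, edgeR adjusted p = 0.10). The call was lost in a fit of only the 2 aged groups (adjusted p = 0.22) and without any one of Aged Bleo 1, Aged Bleo 2, Aged Sham 13 or Aged Sham 14, with DESeq2 adjusted p up to 0.18, and without the 3 libraries that stood apart the value was -0.18 (adjusted p = 0.66). With those left out, Ptgis was instead called higher in Aged Bleo than in Young Bleo, by 0.58 (DESeq2 adjusted p = 0.0031), and than in Young Sham, by 0.70 (DESeq2 adjusted p = 0.00020). The difference of the responses was -0.80 (SE 0.29) and was not called. Transcripts on the opposite strand overlap Ptgis, 1110018N20Rik with at most 80 counts and Gm14291 with at most 17, against 809 to 4950 for Ptgis.

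Ptges (chr2:30889471-30929863), which makes prostaglandin E2, fell in young mice after bleomycin. Young Sham 21 to 25 held 2494, 3861, 2059, 3687 and 2611. Young Bleo 17 to 20 held 303, 259, 522 and 1437, all below the lowest Young Sham library. The fall was -2.22 log2 units, or 4.67-fold (SE 0.63, DESeq2 adjusted p = 0.0050, edgeR adjusted p = 0.035). It was called without any single library, at values from -3.02 to -1.96. Aged Sham 13 to 15 held 5923, 2852 and 5476. Aged Bleo fell apart into 434 and 693 in replicates 1 and 2, and 3933 and 3455 in replicates 3 and 5. The injury effect in aged mice was -1.16 log2 units with a 95% interval of -2.55 to 0.24 (DESeq2 adjusted p = 0.39). Aged Bleo and Young Bleo differed by 1.76 without a call (SE 0.66, DESeq2 adjusted p = 0.21), and by 2.55 without the 3 libraries that stood apart (DESeq2 adjusted p = 5.7e-05). This difference was also called without Aged Bleo 1 or without Young Bleo 20.

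Hpgd (chr8:56294552-56321046), which inactivates prostaglandins, fell 3.23-fold after bleomycin in young mice. Young Sham held 63827 ± 9333 (SD, n = 5), between 48443 and 72619. Young Bleo 17 to 20 held 13046, 15651, 19900 and 30518, all below Young Sham. The change was -1.69 log2 units (SE 0.28, DESeq2 adjusted p = 1.6e-07, edgeR adjusted p = 0.0028), and was called without any single library. Aged Sham held 67504, 77656 and 72681, which overlapped Young Sham, and the 95% interval of the age effect was -0.40 to 0.78 log2 units.

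In Aged Bleo, Hpgd held 21229, 38639, 55250 and 58243 in replicates 1, 2, 3 and 5, all below Aged Sham. In FPKM the groups overlapped, with 341.8 in Aged Bleo 5 and 333.2 in Aged Sham 13. The injury effect in aged mice was -0.74 log2 units and was not called (SE 0.31, DESeq2 adjusted p = 0.15, edgeR adjusted p = 0.24). Aged Bleo was above Young Bleo by 1.13 (SE 0.29, DESeq2 adjusted p = 0.018, edgeR adjusted p = 0.22), although the groups overlapped. That call was lost in a fit of only the injured groups (DESeq2 adjusted p = 0.095), and without any one of Aged Bleo 3, Aged Bleo 5, Young Bleo 17, Young Bleo 18 or Young Bleo 19, with DESeq2 adjusted p up to 0.14, and stood at 1.52 without the 3 libraries that stood apart (DESeq2 adjusted p = 9.8e-06). The difference of the responses was 0.95 (SE 0.42, DESeq2 adjusted p = 0.48), and 1.38 without those 3 (DESeq2 adjusted p = 0.028).

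**Figure D3:**
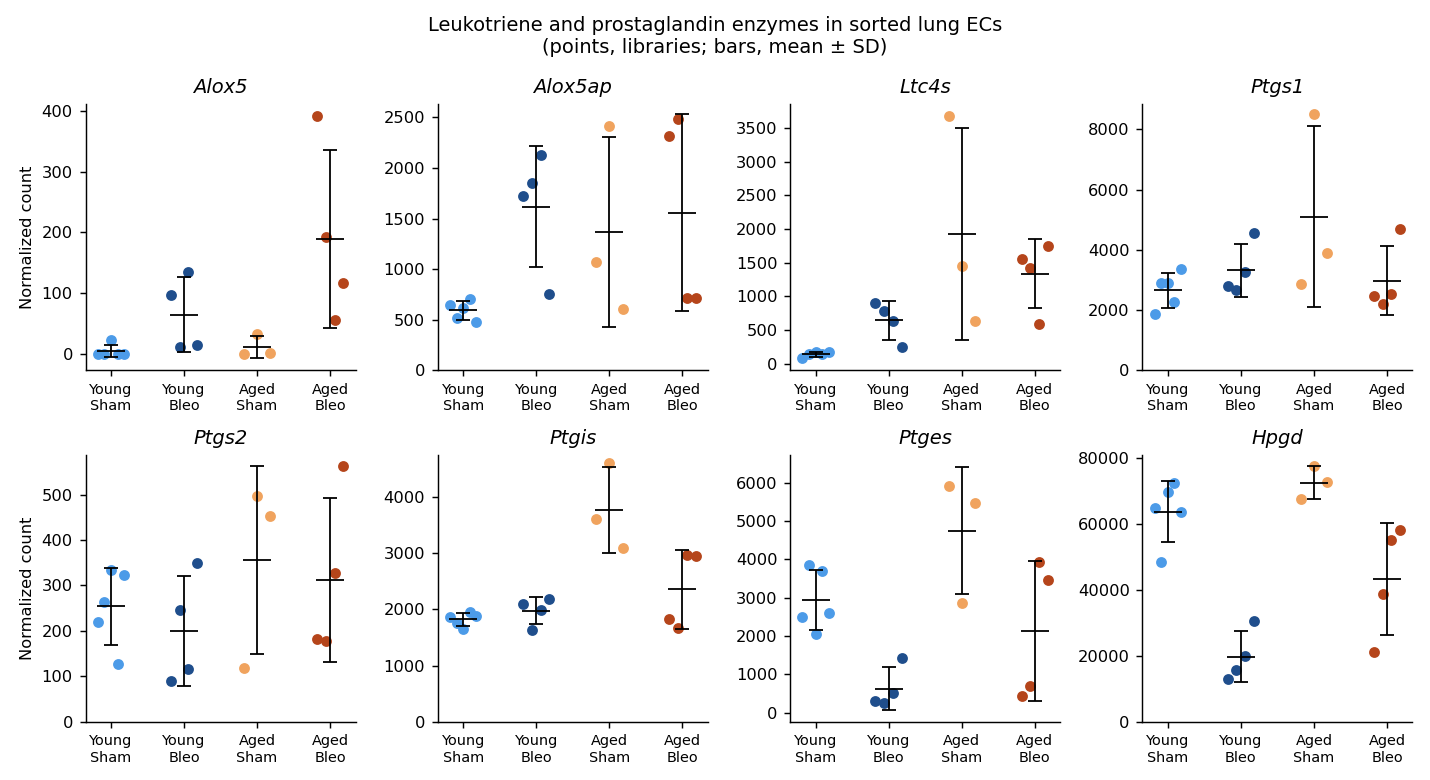
Normalized count of each gene in each library by group (points), with the mean and SD of the group (bars). Every Young Sham library is below all others for Ltc4s, all Young Bleo libraries are below Young Sham for Ptges and Hpgd, and the 3 Aged Sham libraries are the highest for Ptgis, which in FPKM overlap Aged Bleo.

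Markers of aerocytes, the capillary ECs that lie against the airspace and carry Car4, were low in the libraries with little Ptges and Hpgd. All 6 aerocyte markers were called lower in Young Bleo than in Young Sham, 2 of 6 were lower in Aged Bleo than in Young Sham, and 0 of 6 were called in the other 3 group comparisons. Their summed FPKM was 1513 to 1940 in Young Sham and 1139 to 1779 in Aged Sham. It was 208, 278, 389 and 945 in Young Bleo 17 to 20, and 193, 332, 1271 and 997 in Aged Bleo 1, 2, 3 and 5. The Young Bleo libraries stood in the same order in this sum as in Hpgd but not as in Ptges, which was lowest in replicate 18, and the 2 Aged Bleo libraries with high Ptges and Hpgd were those with high aerocyte markers. Across the groups the order broke, since Aged Bleo 2 had fewer aerocyte markers than Young Bleo 20 but more Hpgd (38639 against 30518). Within Aged Bleo, Hpgd was highest in replicate 5 and the aerocyte sum in replicate 3. With age, the mean of Ptges went from 2942 in Young Sham to 4750 in Aged Sham and that of the aerocyte sum from 1709 to 1466 FPKM, with no call for Ptges or any of the 6 markers. No aerocyte marker was at 0 in any library, and the part of aerocyte number in the values of Ptges and Hpgd was not tested.

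**Figure D4:**
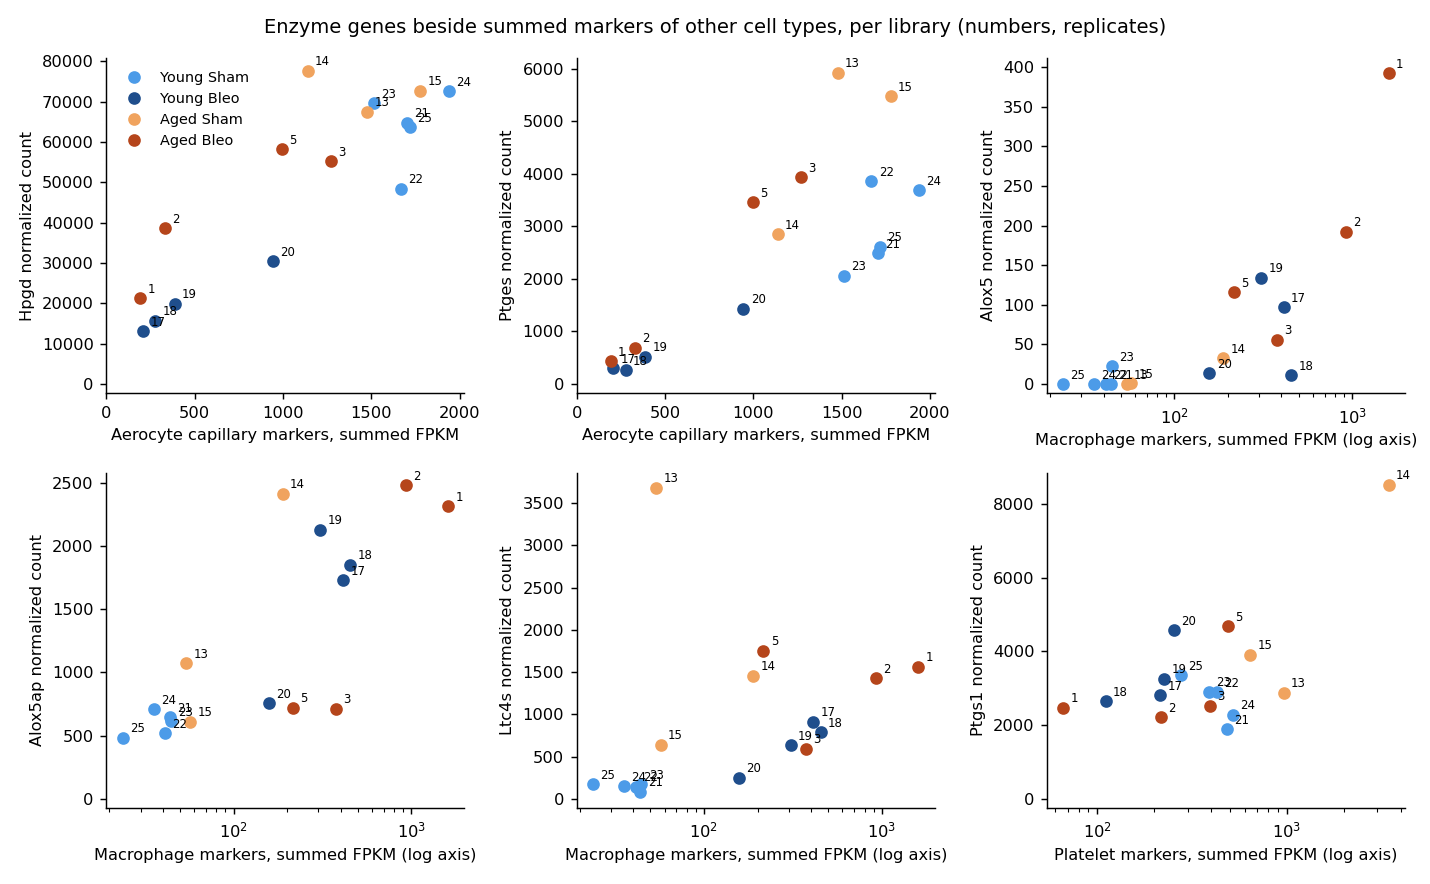
Normalized counts of 6 of the genes plotted against the summed FPKM of aerocyte, macrophage or platelet markers in the same library, with the replicate number at each point and the macrophage and platelet axes on a log scale. Hpgd and Ptges are low in the libraries with few aerocyte markers, Alox5 is highest in Aged Bleo 1, where macrophage markers are highest, and Ptgs1 is highest in Aged Sham 14, where platelet markers are highest. Ltc4s is highest in Aged Sham 13, at 54.1 FPKM of macrophage markers.

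The wider pathway was taken from a list of 47 further genes of arachidonic acid release, eicosanoid synthesis, transport, breakdown and reception, of which 41 were tested. DESeq2 called 3 higher and 1 lower with age in sham mice, 3 higher and 4 lower with injury in young mice, and 2 higher and 4 lower with injury in aged mice. It called 3 higher and 1 lower in Aged Bleo against Young Sham, 0 between the injured groups and 0 for the difference of the responses. In the order age, young injury, aged injury, Aged Bleo against Young Sham, injured groups and difference, edgeR called 0, 2, 1, 3, 0 and 0. Its shares of all genes were 0.862%, 9.78%, 0.797%, 5.69%, 0.0437% and 0.00546% in the same order. The DESeq2 calls, out of 41 genes each, stand against 3.35%, 13.9%, 5.83%, 9.72%, 1.03% and 0.381% of all genes. At an unadjusted p under 0.05, DESeq2 had 2 of 41 between the injured groups, against 10.6% of all genes, and 5 of 41 for the difference, against 8.1%. edgeR had 2 and 6 of 41 there, against 8.75% and 7.0%, and 11 of 41 with age, against 12.7%. The median log2 fold change of the tested genes was 0.46 with age, 0.15 with injury in young mice and -0.40 with injury in aged mice, against 0.02, 0.01 and 0.01 over all tested genes.

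Of the 9 prostanoid receptors, Tbxa2r, the thromboxane receptor, was the only one called, and it was lower in 3 groups than in Young Sham. It averaged 8045 ± 1185 in Young Sham (SD, n = 5) and lay at or under 4592 in Young Bleo, at or under 3964 in Aged Bleo and at or under 4974 in Aged Sham, while its lowest Young Sham library held 5973. Its log2 fold change was -1.36 in Young Bleo (SE 0.26, DESeq2 adjusted p = 1.0e-05, edgeR adjusted p = 0.0054) and -1.50 in Aged Bleo (SE 0.26, DESeq2 adjusted p = 1.0e-06, edgeR adjusted p = 0.0046), and both were called without any single library. With age it was -0.89 (DESeq2 adjusted p = 0.049, edgeR adjusted p = 0.16), called in 6 of 16 fits that left out 1 library and lost without any Aged Sham library. The markers of pericytes and smooth muscle stood in the same group order, at 30.1 to 74.1 summed FPKM in Young Sham, 19.1 to 32.5 in Aged Sham, 11.2 to 32.0 in Young Bleo and 8.64 to 14.0 in Aged Bleo. Of these 6 markers, 4 were called lower in Young Bleo, 6 in Aged Bleo and 1 in Aged Sham than in Young Sham. The general endothelial sums had the same order of means, at 2462 in Young Sham, 2137 in Aged Sham, 1744 in Young Bleo and 1666 FPKM in Aged Bleo. Aerocyte sums were also lower in the injured groups, with means of 455 in Young Bleo and 698 in Aged Bleo against 1709 FPKM in Young Sham. The part of these cells in Tbxa2r was not tested. Of the 4 leukotriene receptors tested, Cysltr2, a cysteinyl leukotriene receptor, was called lower in Young Bleo by -1.46 (DESeq2 adjusted p = 0.017, edgeR adjusted p = 0.072), with 11.3 to 70.3 normalized counts against 94.8 to 138 in Young Sham. The call was lost without Young Bleo 17.

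Of the 5 genes of transport and breakdown, Slco2a1, the carrier that brings prostaglandins into cells where Hpgd acts on them, was called once. It was lower in Young Bleo by -0.62 log2 units (SE 0.17, DESeq2 adjusted p = 0.0028, edgeR adjusted p = 0.026), also without any single library. Young Bleo 20 held 85602, within the 82859 to 105440 of Young Sham, and the other 3 held 52240 to 55977. That library also had the most Hpgd and the most aerocyte markers of its group.

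Among the other enzymes, the platelet-type lipoxygenase Alox12 and the thromboxane synthase Tbxas1 were called higher with age, by 1.83 (DESeq2 adjusted p = 0.0043, edgeR adjusted p = 0.073) and 1.64 log2 units (DESeq2 adjusted p = 0.0032, edgeR adjusted p = 0.057). Both calls rested on Aged Sham 14, the library with the most platelet markers. Alox12 held 51510 there against 8662 and 12858 in the other Aged Sham libraries, and Tbxas1 held 6786 against 1658 and 1902. Without that library the values were 0.65 for Alox12 (DESeq2 adjusted p = 0.44) and 0.69 for Tbxas1 (DESeq2 adjusted p = 0.30). In Aged Bleo against Aged Sham they were lower by -2.07 (DESeq2 adjusted p = 0.0012, edgeR adjusted p = 0.051) and -1.84 (DESeq2 adjusted p = 0.00099, edgeR adjusted p = 0.050), and without Aged Sham 14 by -0.89 each, with no call.

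Lta4h, which competes with Ltc4s for leukotriene A4 and makes leukotriene B4, was called in no comparison, with group means between 4836 in Young Sham and 5485 in Young Bleo. The dipeptidase Dpep1, which converts leukotriene D4 to E4, was called higher with age by 2.03 log2 units (SE 0.57, DESeq2 adjusted p = 0.017, edgeR adjusted p = 0.11). Aged Sham held 977 to 1373 and Young Sham 192 to 452 normalized counts, and the call was lost without any one Aged Sham library and without Young Sham 22 or 25. Dpep1 was lower in Aged Bleo than in Aged Sham by -2.15 (DESeq2 adjusted p = 0.011, edgeR adjusted p = 0.088), a call lost without Aged Sham 13 or 15.

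Its relative Dpep2 exceeded the Young Sham level by 2.97 log2 units in Aged Bleo (DESeq2 adjusted p = 0.0018, edgeR adjusted p = 0.039). It held 822 and 577 in Aged Bleo 1 and 2, the libraries with the most macrophage markers, and 80.4 and 90.8 in replicates 3 and 5, and the call was lost without Aged Bleo 1. The membrane-bound glutathione transferases Mgst2 and Mgst3, relatives of Ltc4s, were called lower by DESeq2 alone, Mgst2 in Young Bleo by -1.45 (DESeq2 adjusted p = 0.021) and Mgst3 in Aged Bleo against Aged Sham by -0.89 (DESeq2 adjusted p = 0.038). The Mgst2 call was lost without Young Bleo 17 or 18 or Young Sham 24, and the Mgst3 call without 5 single libraries, Aged Bleo 1 or 5, Aged Sham 13 or 14, or Young Sham 21.

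The phospholipase Pla2g2d averaged 1.87 normalized counts in Young Sham and 3.85 in Aged Sham, against 34.2 and 81.2 in the injured groups of the same ages. DESeq2 called it higher in each injured group than in the sham group of the same age (adjusted p = 0.013 in young and 0.044 in aged mice), and both tools called it in Aged Bleo against Young Sham (DESeq2 adjusted p = 0.00090, edgeR adjusted p = 0.028). Single libraries removed the young call (Young Bleo 17 or 18) and, in 8 of 16 fits, the aged call. The prostaglandin D synthases Ptgds and Hpgds were called higher in Young Bleo by DESeq2 alone (adjusted p = 0.026 and 0.022), at means of 34.5 and 21.2 normalized counts, and each call was lost without Young Bleo 17. Hpgds was also called in Aged Bleo against Young Sham (DESeq2 adjusted p = 0.0039, edgeR adjusted p = 0.051), and not without Aged Bleo 1. Pla2g6 was higher in Aged Bleo than in Aged Sham by 0.78 (DESeq2 adjusted p = 0.013, edgeR adjusted p = 0.078), a call lost without Aged Bleo 1 or Aged Sham 13 or 15.

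Without the 3 libraries that stood apart, several pathway calls were lost in DESeq2. In Aged Bleo against Young Sham these were Dpep2 (0.78, adjusted p = 0.81), Pla2g2d (4.25, adjusted p = 0.16) and Hpgds (2.75, adjusted p = 0.50). In Aged Bleo against Aged Sham they were Dpep1 (-1.49, adjusted p = 0.088), Pla2g2d (7.15, adjusted p = 0.075), Pla2g6 (0.75, adjusted p = 0.19), Mgst3 (-0.86, adjusted p = 0.19), Alox12 (-0.38, adjusted p = 0.53) and Tbxas1 (-0.77, adjusted p = 0.32). With age, Tbxa2r was also lost (-0.75, adjusted p = 0.053), beside Alox12 and Tbxas1, and Dpep1 was kept (2.18, adjusted p = 5.5e-05).

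**Figure D5:**
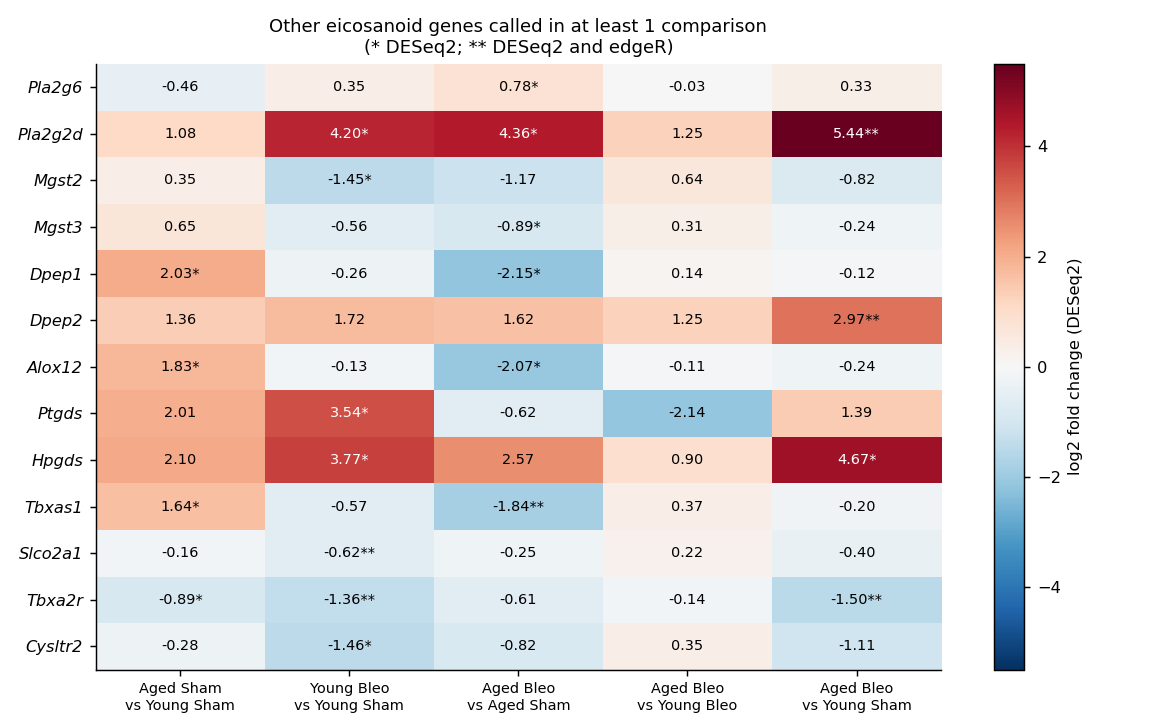
Log2 fold change (colour and number) of the 13 further eicosanoid genes that were called in at least 1 comparison, from DESeq2, where 1 star marks a DESeq2 call and 2 stars a call by DESeq2 and edgeR. Tbxa2r carries 2 stars in both injured groups against Young Sham, and Alox12 and Tbxas1 are higher in Aged Sham than in Young Sham and lower in Aged Bleo than in Aged Sham.

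The genes with the pattern most like each enzyme were found by the root mean square difference of centred log2(normalized count + 1) over the 16 libraries, among 13774 genes that averaged at least 50 normalized counts. For Ptges these were Clec4g, Crym and Aard, at 0.31, 0.32 and 0.39 log2 units, where the spread of Ptges itself was 1.47. For Hpgd they were the lincRNA Gm20603, Dnajb4 and Ccdc68, at 0.21, 0.25 and 0.25, where its own spread was 0.85. For Ptgis they were Prss23, Dap and Nmral1, at 0.21, 0.22 and 0.25 against a spread of 0.44. Prss23 was also among the 3 nearest to Ptgs1, with its antisense transcript Prss23os and with Ptprj, at 0.30 to 0.31 against a spread of 0.51.

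For Alox5ap the nearest genes were the glycolytic genes Gapdh and Aldoa, at 0.32 and 0.36, and the processed pseudogene Gm13394, at 0.33, against a spread of 0.85. For Alox5 they were Chil3, which is in the macrophage list, Igsf6 and Bcl2a1b, at the larger differences of 1.34, 1.34 and 1.40 against a spread of 3.09. After Gm26542, at 0.25, the genes nearest to Ltc4s were Ifi27l2a and Gp49a, at 0.70 and 0.74 against a spread of 1.56. For Ptgs2 they were Adam9, Edem3 and RP23-349K15.2, at 0.39 to 0.41 against a spread of 0.78.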

How the data were processed

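The authors deposited read counts per gene and FPKM for 16 libraries. Per the submitters' processing notes, STAR 2.5.2b and Subread featureCounts were used with mm10. The labels name SMART-Seq v4 with Nextera libraries and the study's methods TruSeq, and the files do not settle which. Strand setting, annotation release and the handling of multiply mapped reads are not given in the sources used here. The members and lists were chosen with earlier results of these data known.

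DESeq2 1.42.0 (R 4.3.3) was fitted to the counts of all 16 libraries with group as the only term, and its log2 fold changes were not shrunken. The alternatives were edgeR 4.0.16, limma-trend 3.58.1 on log2(FPKM + 0.1), TMM factors, a filter of 10 counts in 3 libraries, only the libraries compared, and each library left out. The fits were tested on simulated data. The text names the 8 genes, the listed pathway genes called at least once with Lta4h, which was chosen after its values were seen, and the 3 genes most like each of the 8. Marker lists were summed in FPKM. All 5 group comparisons were made, and gene coordinates come from the deposited table.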

Additional observations from a re-analysis of the deposited data

Results flagged for a closer look

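Outlying libraries were sought in 24 groups of values, the 8 genes in each of the 3 groups with 4 or 5 libraries, and 2 stood out, where chance alone marks about 1 in 20. Alox5 in Young Sham stood out because replicate 23 held 11 reads and the other 4 libraries none, so that the gap to the nearest library took up the whole range of the group (ratio 1.0). Ptgs1 in Aged Bleo stood out because replicate 5, at 4677, was far from the other 3, at 2216 to 2523 (ratio 0.875).

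The bleomycin response of Ltc4s differed between aged and young mice by -2.70 on the log2 scale (DESeq2 adjusted p = 0.030). Over the other settings that kept all libraries, the adjusted p was 0.36 with edgeR, 0.45 with limma, 0.032 with TMM factors and 0.025 with the low-count filter. In young mice all 4 Bleo libraries were above all 5 Sham libraries, and in aged mice the groups overlapped.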

How the results depend on the processing

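No paired analysis was possible because replicate numbers do not repeat between the groups. With TMM factors, all 48 log2 fold changes of the 8 genes kept their direction and call. Over all settings other than leaving out single libraries, TMM factors included, 7 of 280 values reversed, 10 gained and 15 lost a call. Counts of called genes moved as follows. With edgeR 0 of 8 were called in Aged Bleo against Aged Sham, in Aged Bleo against Young Bleo and for the difference of responses. The shares of all genes were 0.797%, 0.0437% and 0.00546%. Of the pathway genes edgeR called 0 with age, 2 with injury in young and 1 with injury in aged mice, against 0.862%, 9.78% and 0.797% of all genes. With limma 1 of 8 was called with age, against 0.83% of all genes, 0 between the injured groups, against 0.196%, and 0 for the difference, where it called 0 of 17832 genes. At an unadjusted limma p under 0.05 there were 4 of 8 between the injured groups and 3 of 8 for the difference. No share of all genes at that limma p is given here, so these counts cannot be set against a background. Only the libraries compared gave 0 between the injured groups, against 1.23% of all genes called. In that fit 3 of 8 had an unadjusted p under 0.05, for which no share of all genes is given here. TMM factors gave 1 pathway gene between the injured groups, against 1.05%. Without Aged Bleo 1, Aged Bleo 2 and Aged Sham 14, a setting chosen after seeing the data, 0 of 8 were called in Aged Bleo against Aged Sham, 4 against Young Bleo and 3 for the difference, while the share of all genes called was 2.16%, 7.7% and 2.07%, against 5.83%, 1.03% and 0.381% with all libraries. Of the 8, 1 had an unadjusted p under 0.05 in Aged Bleo against Aged Sham there, and no share of all genes at that p is given here. Leaving out each library in turn gave 0 to 2 calls in Aged Bleo against Aged Sham (2.65% to 8.34% of all genes), 0 to 2 against Young Bleo (0.592% to 2.62%), 1 to 3 against Young Sham (5.71% to 12.4%) and 0 to 1 for the difference (0.169% to 1.23%).

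The values that reversed were all uncalled, and the cause was not tested. Without the 3 libraries, Alox5 in Aged Sham against Young Sham was -2.72, Ptges in Aged Bleo against Young Sham 0.33 and Ptgs1 in Aged Bleo against Young Bleo 0.11. In Aged Bleo against Aged Sham, the same setting gave -0.23 for Alox5ap, 0.086 for Ptgs1 and 0.64 for Ptgs2. The Alox5 difference of responses was -0.16 with edgeR. Leaving out each library in turn, values in Aged Bleo against Aged Sham ran from -0.95 to 0.35 for Ltc4s, -0.16 to 0.89 for Alox5ap and -0.64 to 0.12 for Ptgs2. Against Young Bleo they ran from -0.37 to 0.19 for Alox5ap and -0.47 to 0.029 for Ptgs1, and against Young Sham from -0.15 to 0.28 for Ptgs1 and -0.15 to 0.49 for Ptgs2. Alox5 ran from -2.75 to 5.97 with age, and the difference of responses from -4.42 to 4.31 for Alox5 and -0.30 to 0.56 for Ptgs2.

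Group sizes of 3 to 5 libraries limit the precision, and the low counts of Alox5 leave its size uncertain.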
